A study of Mus musculus with 8 samples.

Results

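Blood monocytes of the Gr1hi, or classical, subset that carried latex beads were compared with Gr1hi monocytes that carried none. The comparison comprises 4 of the 8 arrays of the study, the 2 arrays of Gr1hi cells with beads and the 2 of Gr1hi cells without, which were chosen by their labels and not by any measured value. The other 4 arrays hold Gr1lo, or nonclassical, monocytes with and without beads, 2 arrays each, and served to estimate the spread and to compare the subsets. All cells came from the blood of male C57BL/6 mice that had received fluorescent latex beads of 1 µm diameter intravenously, and were sorted 4 days later. Per the treatment protocol, animals whose classical cells were to be labelled had also been given 250 µl of clodronate liposomes, which deplete phagocytes, 3 days before the beads, while nonclassical cells were labelled without them. The study's design text mentions the liposomes without separating the subsets, so that Gr1hi and Gr1lo arrays may differ in this treatment too. Bead-carrying and bead-free Gr1hi cells share it. The study followed macrophages of mouse atherosclerotic plaques, and this comparison asks how blood cells that hold the bead label differ in expression from those that do not. The sources used here do not give the ages of the mice or how many mice or cells each array stands for. A p-value therefore measures the spread between these arrays, which the design text calls biological replicates.

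Classical monocytes leave the bone marrow, circulate briefly and either enter tissues, where they can become macrophages, or lose Ly-6C in the blood and become nonclassical monocytes. The nonclassical cells patrol the vessel wall and depend on the nuclear receptor Nr4a1. A particle taken up by a phagocyte is moved into an acidified phagosome that fuses with lysosomes. Latex is not digested, so the bead stays in the cell and marks its history while the cell lives. In macrophages that digest cells, lipid and iron have to be handled, and the nuclear receptors Pparg and Nr1h3 and the ETS factor Spic are known regulators of that work.

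Expression was measured as log2 units of RMA signal for 18193 genes, each represented by 1 probe set. Differences below are with beads minus without, in log2 units, followed by ± the moderated standard error from a linear model of all 8 arrays. Genes with an adjusted p under 0.05 were called, and the verbs rose and fell are used for called genes only. A level of 6.98, the 95th percentile of genes not used by blood cells, served as background. Where a group lies below it, the difference is the fitted one between signals and no measured fold.

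In Gr1hi cells 45 of the 18193 genes were called, 0.247% of the genes tested. Of these, 27 rose (0.148%) and 18 fell (0.0989%). Among genes with both groups above background, the 4 largest rises were in Spic, the crosslinking enzyme Tgm2, the lysosomal glycoprotein Gpnmb and the lipid carrier Fabp5, and the 3 largest differences among the falls were those of the gelatinase Mmp9, Cep85 and Kansl1l. With both groups above background, 7 genes rose by 2-fold or more and 0 fell by as much. Another 6 called genes had a fitted difference of that size with a group below background, among them the granule enzymes Mpo and Mcpt8. In 8 called genes 1 group was below background, and against the background level the difference was at least 0.97 log2 units for Fmnl2, 0.74 for Nr1h3, 0.74 for Abtb2, 0.37 for Serinc4, 0.36 for H2-T24, 0.34 for Cd28, 0.29 for Mpo and 0.27 for Igf2r. Called or not, and at any level, the fitted difference of 22 genes was 2-fold or more on the higher side (0.121%) and that of 13 on the lower side (0.0715%). At an unadjusted p under 0.05 there were 1806 genes in either direction, 9.93% of those tested, which is the share to set beside the list counts below. All 45 called genes had no overlap between the 2 arrays with beads and the 2 without, which also held for 44.2% of all genes tested. The median absolute difference of all genes was 0.0915 and the median SD between 2 arrays of a group was 0.0686 with beads and 0.0700 without. The count changed when an array was left out. Leaving out either Gr1hi array with beads, or the first without beads, left 0 called genes by limma, with 1293, 1335 and 1218 at an unadjusted p under 0.05. Leaving out the second array without beads left 6, and leaving out either Gr1lo array with beads left 20. The plot of differences against mean level shows called genes on both sides of background. The highest of them was Fabp5, with group means of 12.55 with beads and 11.21 without.

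**Figure D1:**
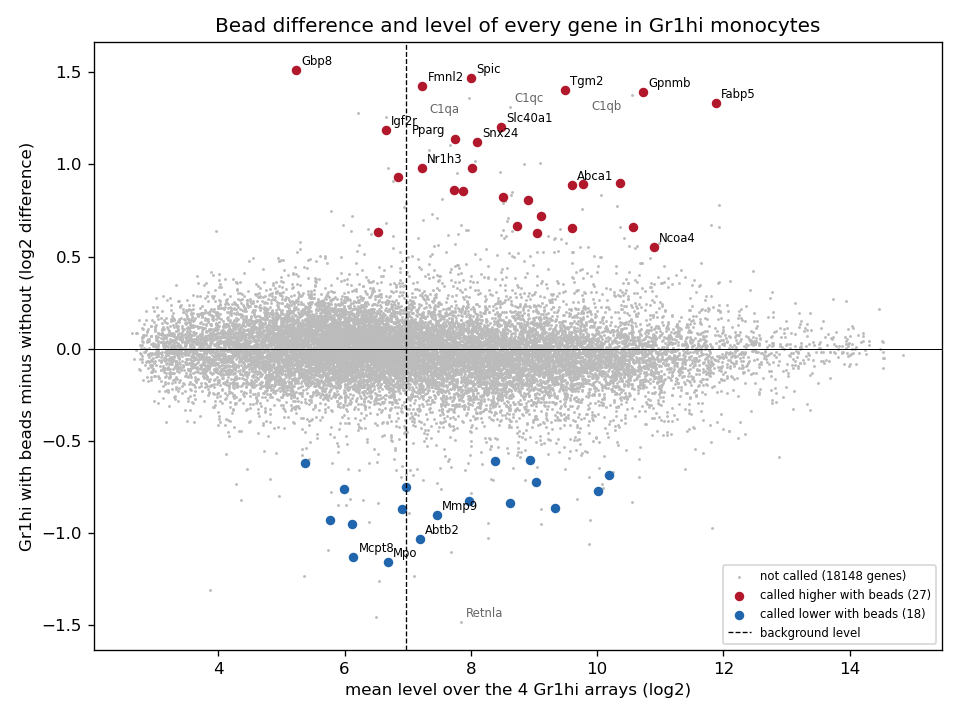
Difference between Gr1hi monocytes with and without beads (log2, vertical axis) against the mean level over the 4 Gr1hi arrays (log2, horizontal axis) for 18193 genes. Coloured points are the 27 genes that rose and the 18 that fell, the dashed line is the background level of 6.98, and grey names mark large differences that were not called.

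The sort labels were checked on measured monocyte genes. Csf1r, the receptor that all monocytes need, was at 14.10 and 14.10 with beads and 13.99 and 13.99 without. Ccr2, the receptor with which classical cells leave the marrow, was at 11.90 and 11.83 with beads and 12.29 and 12.33 without. In Gr1lo cells Ccr2 was at 11.055 and 10.59 with beads and 11.71 and 11.26 without, below every Gr1hi array but close to the lowest. Treml4, a nonclassical marker, was between 8.37 and 9.08 in the 4 Gr1hi arrays and between 12.90 and 13.08 in the 4 Gr1lo arrays, with no overlap. Ly6c1 and Ly6c2 were not analysed here. Array medians lay between 6.12 and 6.19, and between 8615 and 8865 genes per array were above background. Within a group the arrays correlated at 0.9935 to 0.9963, between bead states of 1 subset at 0.9894 to 0.9956, and between subsets at 0.9714 to 0.9776. The poly-A control transcripts, which are spiked into the sample, moved with bead state: their mean over 24 probe sets was 9.45 and 9.86 on the Gr1hi arrays with beads and 7.75 and 8.11 without. The difference between Actb probe sets at the 3′ and 5′ end, a measure of RNA quality, was 0.62 and 0.43 with beads and 0.60 and 0.40 without. The part of these control signals in the results below was not tested.

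Among transcription factors, 4 regulators rose with beads: Spic, Pparg, Nr1h3 and Bhlhe40. They were found among 202 factors measured in 7 family lists, 1.98% of them, against 0.247% of all genes tested. Of the 202 factors, 0 fell by limma. At an unadjusted p under 0.05, 14 were higher and 19 lower. The lists hold factors named in macrophage biology and were drawn up with results of these data known, so the share is a description. The median difference of the 202 factors was -0.05, against -0.015 for all genes.

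Spic, which heme induces and which red pulp macrophages of the spleen require, was at 8.78 and 8.69 with beads and 7.22 and 7.31 without. All 4 values were above background, and both bead arrays lay above both others. The difference was 1.47 ± 0.11 (adjusted p = 0.00836), 2.77 times. The other probe set of Spic had a fitted difference of 2.41, with a mean below background, 6.22, without beads. Pparg, a nuclear receptor for fatty acids that drives lipid uptake and storage, was at 8.37 and 8.27 with beads and 7.31 and 7.05 without. Pparg rose by 1.14 ± 0.14 (adjusted p = 0.028). Nr1h3, the liver X receptor alpha that senses oxysterols, was at 7.63 and 7.81 with beads and, just below background, 6.72 and 6.75 without. Its rise of 0.98 ± 0.15 was among the called results closest to the threshold (adjusted p = 0.0486, and 0.0559 when the mean of all probe sets stood for each gene). Bhlhe40, a basic helix-loop-helix repressor, was at 9.38 and 9.33 with beads and 8.67 and 8.78 without, a rise of 0.63 ± 0.09 (adjusted p = 0.0347). Cipc, which binds CLOCK and represses the circadian feedback loop, stood outside the lists and rose by 0.65 ± 0.10 (adjusted p = 0.0489), from 9.21 and 9.33 to 9.85 and 10.001, with 0.55 (adjusted p = 0.0947) over the mean of its probe sets. Mdfic, which binds and retains transcription factors in the cytoplasm, also stood outside them and rose by 0.66 ± 0.08 (adjusted p = 0.028), from 10.30 and 10.18 to 10.91 and 10.89.

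The remaining factors did not pass the threshold. Of 44 nuclear receptors, the next smallest p was that of Rora, with 7.09 and 7.11 without beads and 7.54 and 7.67 with (difference 0.50 ± 0.09, adjusted p = 0.0964). Id3, a dominant negative partner of E proteins that tissue macrophages use, was at 8.09 and 8.37 without beads and 8.95 and 9.21 with (difference 0.85 ± 0.14, adjusted p = 0.0662). The NF-kB subunit Rel differed by 0.45 ± 0.08 and the E-box repressor Mxd3 by -0.49 ± 0.08. In the opposite direction, Nfe2, a partner of small MAF proteins, was at 10.61 and 10.27 without beads and 9.81 and 9.61 with (difference -0.74 ± 0.12, adjusted p = 0.0797). The C/EBP and MAF, the IRF, STAT and NF-kB, the AP-1 and EGR, and the KLF, GATA and IKZF lists each had 0 called members by limma, with medians between -0.10 and -0.03. At an unadjusted p under 0.05 these 4 lists held 1, 1, 0 and 2 higher and 3, 2, 4 and 5 lower members. Their members with the smallest p included Cebpd (-0.65 ± 0.19), Fosl2 (-0.70 ± 0.19) and Egr1, which was at 7.08 and 6.69 with beads and 7.99 and 7.21 without (-0.72 ± 0.23). Nr4a1 was at 11.25 and 11.36 with beads and 11.16 and 11.31 without, and its arrays overlapped.

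**Figure D2:**
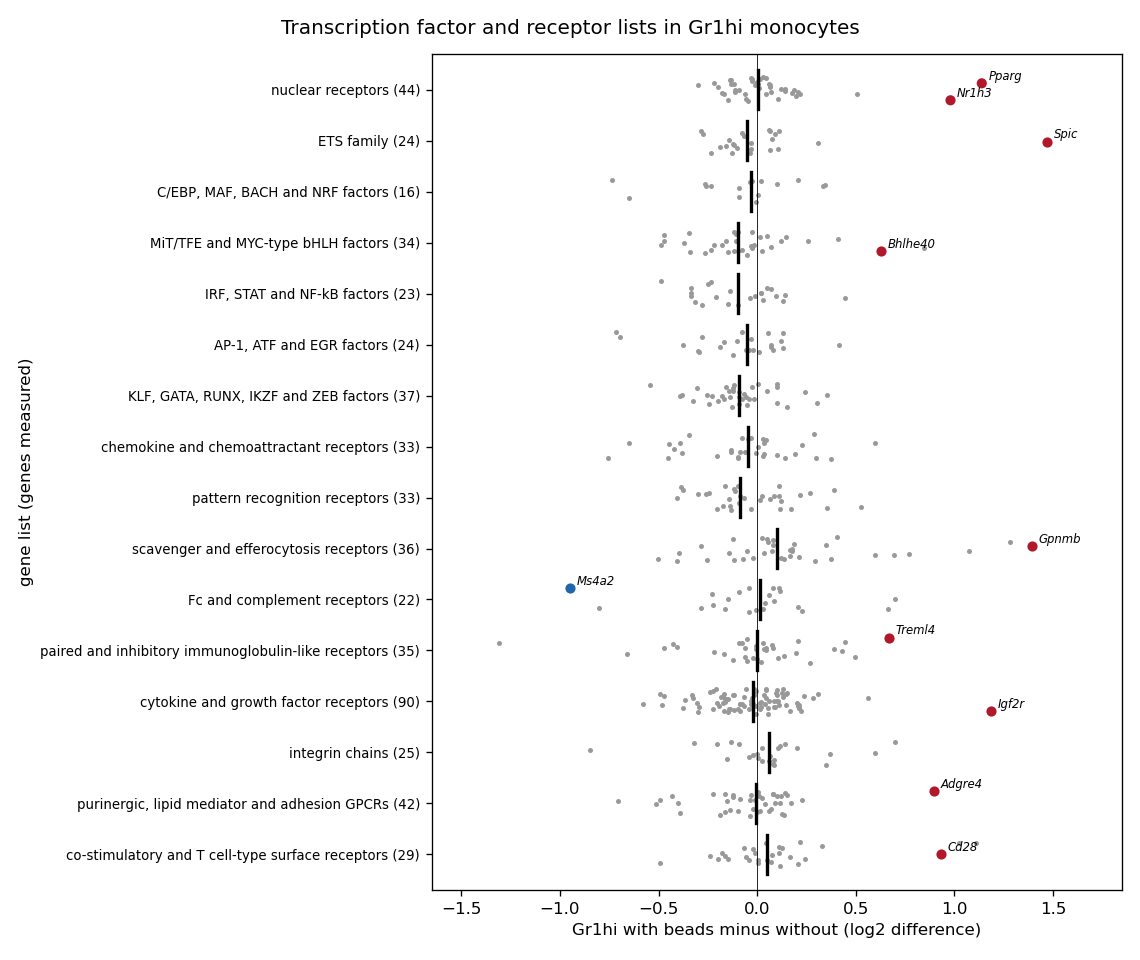
Differences (log2, with beads minus without, horizontal axis) of the measured members of each transcription factor and receptor list, 1 point a gene. Coloured points were called, red for rises and blue for falls, and the black bar is the median of the list. The medians lie between -0.10 and 0.10. Called genes are not always the outermost of a list: uncalled Cd83 lies at 1.11, Id3 at 0.85 and Nfe2 at -0.74.

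Among receptors, 5 of 335 measured rose and 1 fell, together 1.79%, against 0.247% of all genes tested. The rises were in Gpnmb, Igf2r, Adgre4, Treml4 and Cd28, and the fall was in the IgE receptor chain Ms4a2. The receptor Gpr15 stood outside the lists and is not in these counts. It was called lower (-0.93 ± 0.13, adjusted p = 0.0347) with both groups below background. The receptor lists, too, were drawn up with results of these data known, so the share is a description. Gpnmb, a transmembrane glycoprotein of phagosomes and lysosomes that TFE-type factors induce in lipid-laden macrophages, was at 11.33 and 11.52 with beads and 9.94 and 10.12 without. It rose by 1.39 ± 0.17 (adjusted p = 0.0259), 2.63 times. Igf2r, the cation-independent mannose 6-phosphate receptor that brings hydrolases to lysosomes, was at 7.11 and 7.38 with beads and below background at 6.097 and 6.03 without. It rose by 1.19 ± 0.11 (adjusted p = 0.0134), but its other probe set differed by 0.08, and with the mean of both probe sets the difference was 0.63 (adjusted p = 0.133). Adgre4, an adhesion receptor of the family of Adgre1 that nonclassical monocytes carry in quantity, was at 10.83 and 10.81 with beads and 10.01 and 9.83 without (difference 0.90 ± 0.10, adjusted p = 0.0211). Treml4, a Trem-like receptor that binds dying cells, was at 9.05 and 9.08 with beads and 8.42 and 8.37 without (difference 0.67 ± 0.09, adjusted p = 0.0347). Cd28, best known as the co-stimulatory receptor of T cells, was at 7.45 and 7.18 with beads and below background at 6.35 and 6.41 without (difference 0.93 ± 0.11, adjusted p = 0.0253).

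Cd28 was the 1 called member of 14 T cell markers. Of the 14, 3 were above background and 13 had a difference above 0. The median difference was 0.11, against -0.015 for all genes. The mean level of the list was 6.13 and 6.14 with beads and 5.98 and 5.98 without. Cd3e was at 7.39 and 7.43 with beads and 7.35 and 7.27 without, a difference of 0.10 ± 0.09 (adjusted p = 0.782). Cd8a was at 7.06 and 7.29 with beads and 6.96 and 7.003 without.

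Scavenger and efferocytosis receptors had 1 called member of 36, Gpnmb, and the list's median of 0.10 was among the highest. The next smallest p-values were those of Havcr2 (0.69 ± 0.12, adjusted p = 0.0797), a phosphatidylserine receptor, Itgb5 (0.60 ± 0.10, adjusted p = 0.0843), an integrin chain that bridges dying cells, and Stab1 (0.77 ± 0.14, adjusted p = 0.0964), a scavenger receptor. Mertk, which binds phosphatidylserine through Gas6, was at 7.30 and 8.45 with beads and 6.30 and 7.29 without. The second array of each Gr1hi group was the higher, and these groups did not overlap (difference 1.08 ± 0.61, adjusted p = 0.613). The 2 Gr1lo arrays without beads stood further apart, at 8.04 and 6.155. Chemokine and chemoattractant receptors had 0 called members of 33 by limma, and at an unadjusted p under 0.05 there were 0 higher and 7 lower. They included Ccr2 (-0.45 ± 0.18, adjusted p = 0.449), Cx3cr1 (-0.38 ± 0.11, adjusted p = 0.29), Fpr2 (-0.65 ± 0.17, adjusted p = 0.244) and Ltb4r1 (-0.42 ± 0.12, adjusted p = 0.309). Pattern recognition receptors had 0 called of 33, with 4 higher and 5 lower at an unadjusted p under 0.05, among them Clec4n (0.52 ± 0.11) and Ifih1 (-0.41 ± 0.10). Integrin chains had 0 called of 25, with 4 higher and 1 lower at that p, led by Itgb5 and by Itgax (0.70 ± 0.15). Of 90 cytokine and growth factor receptors, only Igf2r was called, and Tgfbr1, the type I receptor for TGF-beta, came next at 11.26 and 11.21 with beads and 10.68 and 10.66 without (difference 0.56 ± 0.10, adjusted p = 0.0936). The medians were 0.01 for 22 Fc and complement receptors, 0.00 for 35 paired and inhibitory receptors, -0.01 for 42 mediator and adhesion GPCRs and 0.05 for 29 co-stimulatory receptors. Tnfrsf13b, a receptor for B cell survival factors, lay in the other direction (-0.58 ± 0.11, adjusted p = 0.0964). The inhibitory ligand Cd274 was at 8.15 and 7.66 with beads and 7.01 and 6.74 without (difference 1.03 ± 0.19, adjusted p = 0.0949).

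Among secreted factors, 3 of 353 measured rose and 4 fell, together 1.98%, against 0.247% of all genes tested. This share is a description as well, as the lists were drawn up with results of these data known. Tgm2, a transglutaminase that crosslinks matrix proteins and takes part in the clearance of dying cells, was at 10.14 and 10.25 with beads and 8.54 and 9.03 without. Tgm2 rose by 1.41 ± 0.15 (adjusted p = 0.0177), 2.65 times. Gas6, the bridging ligand of the Tyro3, Axl and Mertk receptors, was below background in all 4 arrays, at 6.83 and 6.86 with beads and 6.23 and 6.19 without, and rose by 0.63 ± 0.08 (adjusted p = 0.0289). With the mean of its probe sets the difference was 0.41 (adjusted p = 0.133), and in the Gr1hi arrays alone the adjusted p was 0.0507, so that the call ended in both. The lipid carrier Fabp5 is described with the metabolic genes. The falls were in the granule proteins Mpo, Mcpt8 and Cpa3 and the matrix protease Mmp9, and are described with the markers of other cells.

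Cytokine and chemokine genes gave no call. Of 35 chemokines, 0 were called by limma and 0 had an unadjusted p under 0.05 in either direction. Ccl3 was at 10.14 and 9.33 with beads and 9.58 and 8.59 without, and its arrays overlapped. Of 48 interleukins, TNF family members and other cytokines, 0 were called, with 1 higher and 3 lower at an unadjusted p under 0.05. Il1b was at 8.99 and 8.22 with beads and 9.10 and 9.03 without (difference -0.46 ± 0.21, adjusted p = 0.527). Of 52 growth factors, Gas6 alone was called, and Igf1 came next at 7.50 and 7.23 with beads and 6.73 and 6.42 without (difference 0.79 ± 0.14, adjusted p = 0.0872). Protease inhibitors had 0 called of 30, with 1 higher and 3 lower at an unadjusted p under 0.05, among them Serpinb6a (0.62 ± 0.13) and Pi16 (-0.56 ± 0.12). Timp2 differed by 0.84 ± 0.50, with an adjusted p of 0.632 in the fit of all arrays and 0.0411 in the fit of the 4 Gr1hi arrays alone. Its replicates furthest apart were the 2 Gr1lo arrays without beads, at 10.66 and 8.67.

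The list medians were 0.01 for 54 secreted proteases, 0.03 for 60 matrix and coagulation proteins, 0.11 for 30 lipid carriers and -0.08 for 27 granule and S100 proteins. Over the members above background they were -0.09, 0.00, 0.10 and -0.33, the last over 19 proteins. The 4 lists held 3, 5, 7 and 1 higher and 4, 3, 1 and 8 lower members at an unadjusted p under 0.05. Of 25 complement genes 0 were called by limma, with 1 higher and 1 lower at an unadjusted p under 0.05. The 3 chains of C1q, the first component of the classical complement pathway and a product of tissue macrophages, were all higher with beads but not called in the fit of all arrays. C1qb was at 11.25 and 11.22 with beads and 9.82 and 9.90 without, C1qa at 8.66 and 8.65 with and 7.24 and 7.36 without, and C1qc at 9.30 and 9.24 with and 7.97 and 7.94 without. In each chain both bead arrays lay above both others, and the replicates of a group were close to each other. The differences were 1.38 ± 0.67, 1.36 ± 0.79 and 1.31 ± 0.75, with adjusted p-values of 0.555, 0.624 and 0.616. In the fit of the 4 Gr1hi arrays alone the adjusted p was 0.00681 for each. The replicates furthest apart were the 2 Gr1lo arrays without beads, where C1qb was at 12.06 and 9.37, C1qa at 11.37 and 8.16 and C1qc at 10.77 and 7.74.

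Among metabolic and lysosomal genes, 10 of 573 measured rose and 1 fell, together 1.92%, against 0.247% of all genes tested. They fall into lipid carriage and efflux (Fabp5, Abca1, Nr1h3), iron (Spic, Slc40a1, Ncoa4), glycolysis (Eno3 higher, Slc2a3 lower) and lysosomes (Gpnmb, Igf2r, Acp2). Spic, Nr1h3, Gpnmb, Igf2r and Fabp5 are also counted in the sections above, so the shares of the sections are not separate results. Here too the lists were drawn up with results of these data known. Fabp5, which carries fatty acids to nuclear receptors and enzymes, was at 12.55 and 12.54 with beads and 11.24 and 11.19 without. Fabp5 rose by 1.33 ± 0.11 (adjusted p = 0.00857), 2.52 times. Abca1, which exports cholesterol to apolipoprotein A-I and is a target of Nr1h3, was at 10.05 and 10.05 with beads and 9.18 and 9.15 without (difference 0.89 ± 0.12, adjusted p = 0.0347). Over the mean of its probe sets the difference was 0.73 (adjusted p = 0.134). Of the 29 genes of cholesterol efflux, Abca1 and Nr1h3 were called, the median was 0.10, and 7 were higher and 1 lower at an unadjusted p under 0.05. Apoe was at 12.27 and 12.39 with beads and 11.50 and 11.59 without (difference 0.78 ± 0.14, adjusted p = 0.0872, and 0.0411 in the Gr1hi arrays alone). Nceh1, a cholesteryl ester hydrolase, was at 10.67 and 10.75 with beads and 9.96 and 9.90 without (difference 0.78 ± 0.14, adjusted p = 0.0928, and 0.0361 in the Gr1hi arrays alone). Abcg1 differed by 0.39 ± 0.08 (adjusted p = 0.134).

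The list of fatty acid uptake and beta-oxidation had 1 called member of 46, the carrier Fabp5, and a median of -0.03. Fabp4, another carrier and a Pparg target, was at 6.89 and 7.67 with beads and 5.35 and 6.69 without (difference 1.26 ± 0.41, adjusted p = 0.357). Fatty acid and triglyceride synthesis had 0 called of 51, with 7 higher and 3 lower at an unadjusted p under 0.05, led by the phosphatidate phosphatase Lpin1 (0.60 ± 0.11, adjusted p = 0.0872). Sterol synthesis and uptake had 0 called of 25, with 1 higher and 5 lower at that p, and Idi1 was at 7.04 and 6.39 with beads and 7.58 and 7.17 without. Srebf1, which drives lipid synthesis, differed by -0.37 ± 0.08 (adjusted p = 0.156).

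In the iron list of 46 genes, 3 rose, 0 fell and the median was -0.04. Slc40a1, or ferroportin, which exports iron from cells that have digested red cells, was at 9.11 and 9.06 with beads and 7.78 and 7.98 without, a rise of 1.20 ± 0.14 (adjusted p = 0.0259). Ncoa4, which delivers ferritin to lysosomes and also binds nuclear receptors, was at 11.16 and 11.20 with beads and 10.62 and 10.63 without. Its rise of 0.55 ± 0.08 was the smallest of the called rises (adjusted p = 0.0489, and 0.0689 over the mean of its probe sets). The ferritin chain Fth1 was at 14.15 and 14.01 with beads and 13.85 and 13.79 without (difference 0.26 ± 0.09, adjusted p = 0.365), and the transferrin receptor Tfrc differed by 0.40 ± 0.10 (adjusted p = 0.212). Hmox1, the enzyme that breaks down heme, was at 10.50 and 9.59 with beads and 9.53 and 9.74 without, and its arrays overlapped.

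The medians of the central carbon lists were close to 0. Of 39 genes of glycolysis and the pentose phosphate pathway, 1 rose and 1 fell, and the median was -0.06. Eno3, the muscle-type enolase that nonclassical monocytes express, was at 8.28 and 8.32 with beads and 7.46 and 7.43 without (difference 0.86 ± 0.12, adjusted p = 0.0347). Slc2a3, the high-affinity glucose transporter GLUT3, was at 8.06 and 8.09 with beads and 8.72 and 8.64 without and fell by 0.61 ± 0.09 (adjusted p = 0.0359). With the mean of its probe sets the difference was -0.32 (adjusted p = 0.167), and in the Gr1hi arrays alone the adjusted p was 0.0621, so that the call ended in both. The tricarboxylic acid cycle had 0 called of 29 with a median of -0.01, and the respiratory chain 0 of 56 with a median of 0.04. At an unadjusted p under 0.05 the first held 1 higher and 0 lower, and the second 3 and 1, among them Uqcr10 (0.47 ± 0.10). At the same p the redox list, with 0 called of 50, held 3 higher and 1 lower. Amino acid and nucleotide enzymes had 0 of 72, with 7 higher and 11 lower. Sphingolipid and eicosanoid enzymes had 0 of 59, with 4 higher and 4 lower, led by Hpgd, which inactivates prostaglandins (0.55 ± 0.13, adjusted p = 0.19).

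Of 61 lysosomal genes, 3 rose and 0 fell, and the median was 0.04. At an unadjusted p under 0.05, 12 were higher and 0 lower, where 9.93% of all genes passed in either direction. Acp2, a lysosomal acid phosphatase, was at 9.22 and 9.41 with beads and 8.48 and 8.54 without (difference 0.81 ± 0.11, adjusted p = 0.0405, and 0.06 over the mean of its probe sets). Acp5, the tartrate-resistant phosphatase of osteoclasts and macrophages, stood just outside the threshold at 9.12 and 9.55 with beads and 8.19 and 8.48 without (difference 1.00 ± 0.15, adjusted p = 0.0538). The protease legumain, Lgmn, differed by 0.67 ± 0.13 (adjusted p = 0.124) and cathepsin K, Ctsk, by 0.55 ± 0.11 (adjusted p = 0.111). Of 22 subunits of the vacuolar proton pump, 0 were called, and 2 were higher and 0 lower at an unadjusted p under 0.05. They were Atp6v1c1 (0.47 ± 0.08, adjusted p = 0.0872) and Atp6v1a (0.36 ± 0.08, adjusted p = 0.182).

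**Figure D3:**
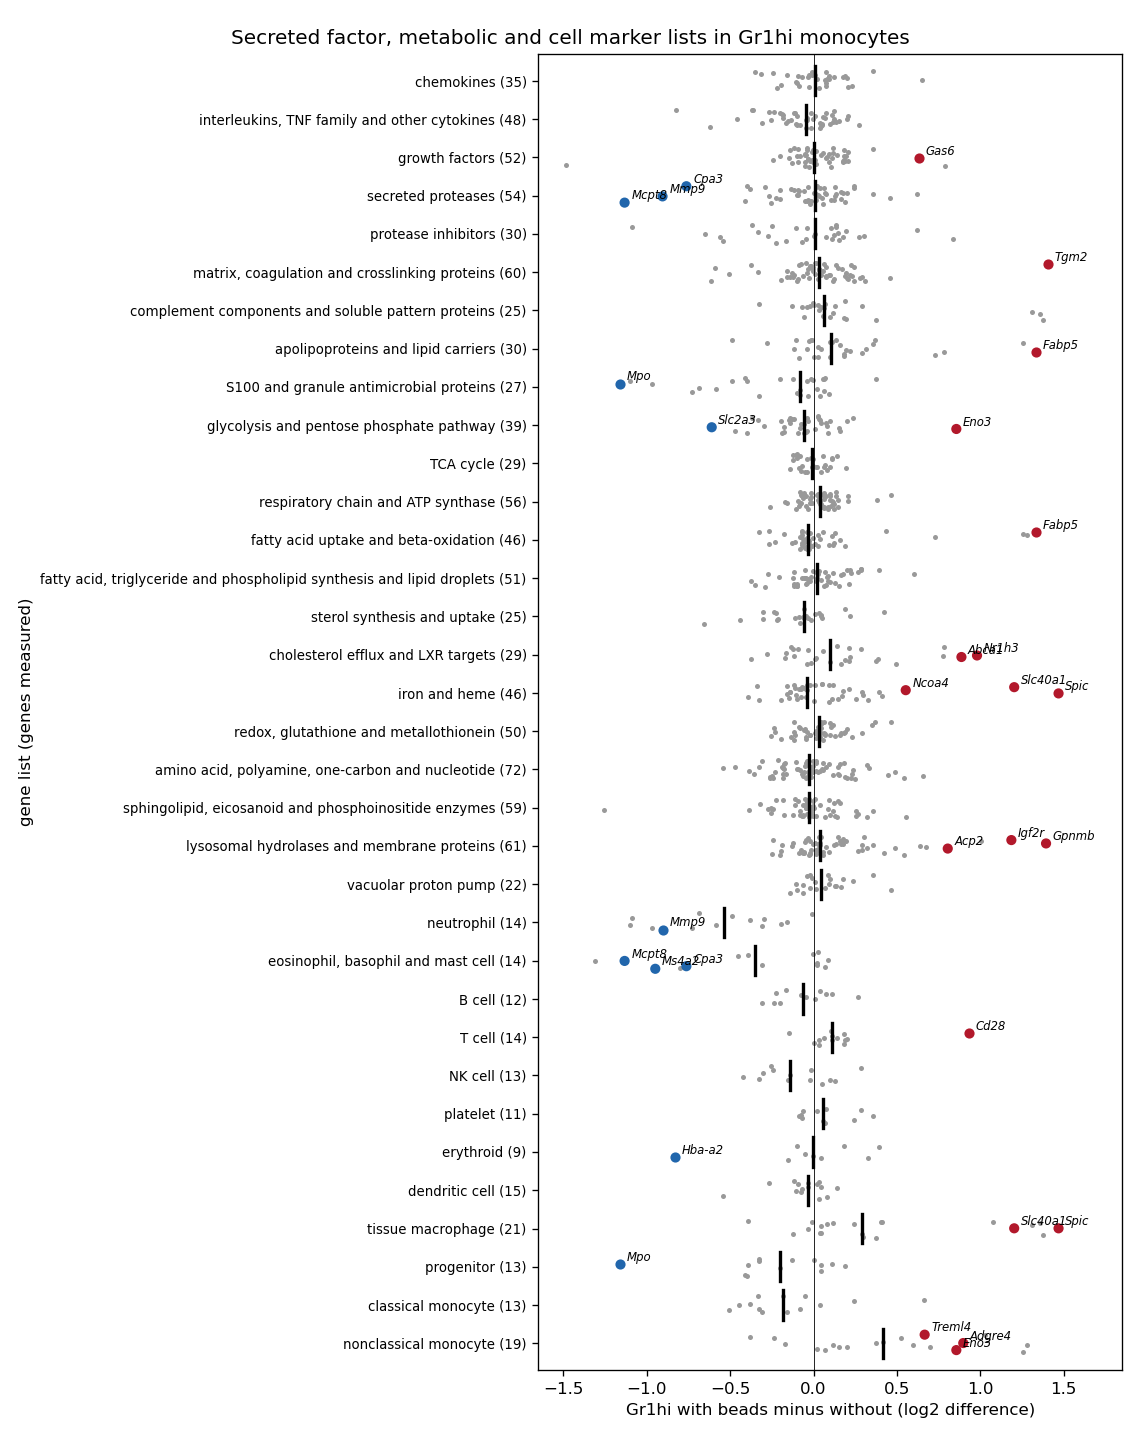
Differences (log2, with beads minus without, horizontal axis) of the measured members of each list of secreted factors, metabolism and markers of other cells, 1 point a gene. Coloured points were called, red for rises and blue for falls, and the black bar is the median of the list. Most medians are within 0.20 of 0. The neutrophil list lies at -0.54, the eosinophil, basophil and mast cell list at -0.35, the tissue macrophage list at 0.29 and the nonclassical monocyte list at 0.42.

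A further 8 rises were in vesicle traffic, the cell cortex, signalling and interferon-type genes, none of them in a list. Gga2, a clathrin adaptor that takes mannose 6-phosphate receptors from the Golgi apparatus to endosomes, was at 8.87 and 8.98 with beads and 8.09 and 8.12 without (difference 0.82 ± 0.09, adjusted p = 0.0177). Snx24, a sorting nexin that binds phosphoinositides, was at 8.62 and 8.71 with beads and 7.53 and 7.56 without (difference 1.12 ± 0.13, adjusted p = 0.0259). Vat1, a vesicle membrane protein, rose by 0.72 ± 0.08 to 9.43 and 9.51. Fmnl2, a formin that elongates actin filaments at the leading edge, was at 7.62 and 8.27 with beads and below background at 6.33 and 6.72 without. Its 2 arrays with beads stood furthest apart of any called gene (difference 1.42 ± 0.20, adjusted p = 0.0359, and 0.102 in the Gr1hi arrays alone). Basp1, a myristoylated protein of the membrane cytoskeleton, rose by 0.98 ± 0.15 to 8.68 and 8.34 (adjusted p = 0.048, and 0.0554 in the fit of mean probe sets), and the giant scaffold protein Ahnak2 by 0.86 ± 0.12 to 8.26 and 8.06 (adjusted p = 0.0347). Grk3, a kinase that desensitises G protein-coupled receptors, was at 10.32 and 10.13 with beads and 9.41 and 9.24 without (difference 0.90 ± 0.12, adjusted p = 0.0347). Gbp8, of the interferon-inducible guanylate-binding proteins, had a fitted difference of 1.51 ± 0.19 (adjusted p = 0.0289) but stayed below background at 5.92 and 6.07 with beads and 4.26 and 4.70 without.

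**Figure D4:**
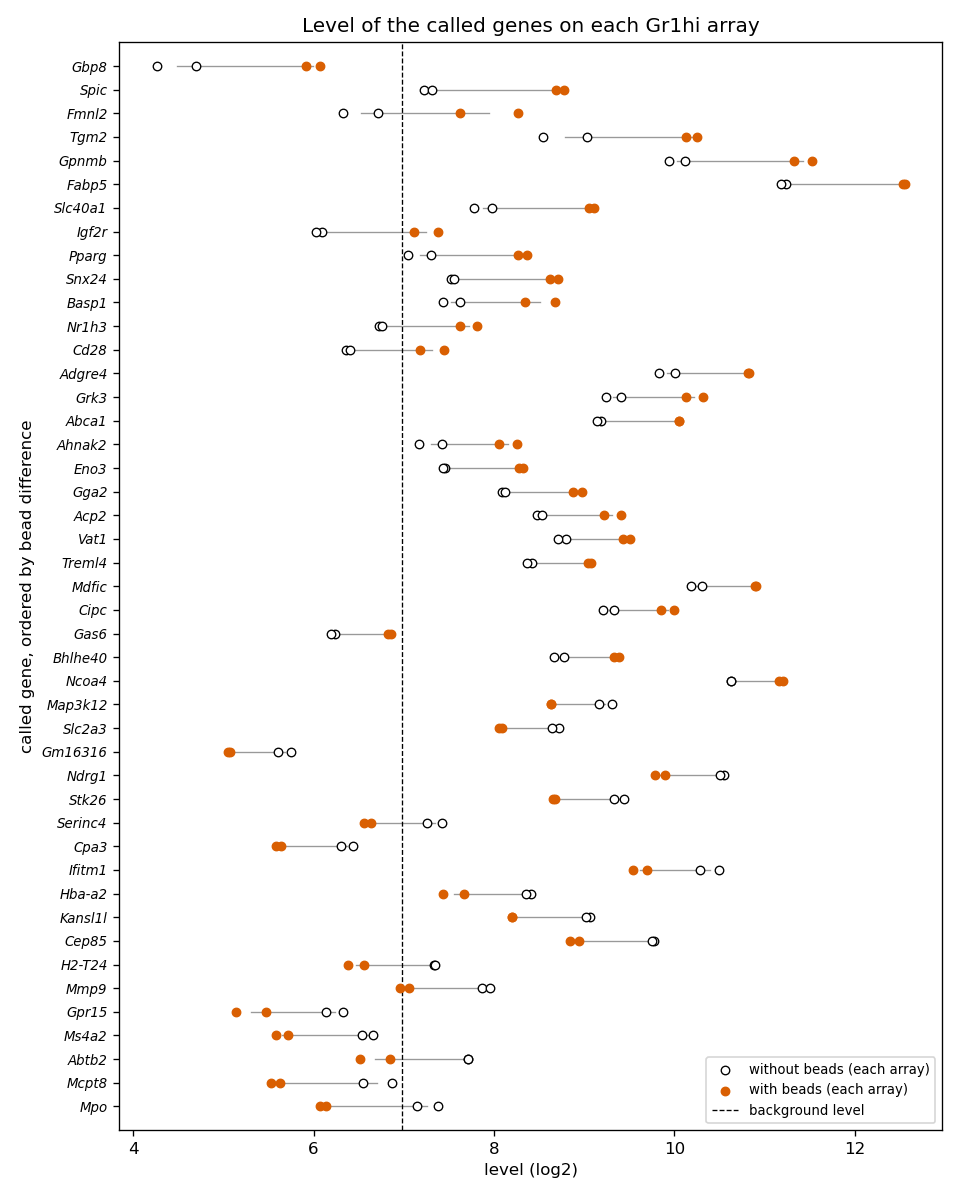
Level (log2 RMA signal, horizontal axis) of each called gene in the 2 Gr1hi arrays with beads and the 2 without, 1 row a gene ordered by difference. The 4 values of a gene are drawn as separate points (filled with beads, open without), a grey line joins the group means, and the dashed line is the background level of 6.98. The groups do not overlap in any of the 45 genes, and 7 of them lie below background in both groups.

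Promoter windows, from 250 bases before to 50 bases after the start, were listed in RefSeq for 19 of the 27 genes that rose (25 windows) and 13 of the 18 that fell (15 windows). They were read for 6 motifs on either strand. CACGTG, the E-box that TFEB, MYC and CLOCK-type factors can bind, was in 16% of the windows of genes that rose, 6.67% of those that fell and 8.72% of 18109 windows of all genes tested. The genes that rose and held it were Igf2r, Gga2, Abca1 and Cipc, and their windows with the motif are printed to show where it lies. Another window of Cipc does not hold it. Among the genes that fell, Map3k12 holds it too, and its window is not printed. TGACNNNGC, the antioxidant response core, was in 16% of windows of genes that rose, 6.67% of those that fell and 13.9% of all. In Gga2 it overlaps the E-box. GAGGAA, an ETS core, was in 16%, 20% and 27.1%. The exact core of the interferon-stimulated response element was in 4%, 6.67% and 3.03%. Exact direct repeats of the nuclear receptor half-site, with spacers of 1 base (Pparg type) and 4 bases (Nr1h3 type), were in 0% of the windows of either group and in 0.0387% and 0.011% of all windows. A match is a description of letters, and at these numbers of windows the shares differ by 1 or a few genes. CACGTG is in capitals in the windows below, from GRCm38.p6.
Igf2r, chr17:12769657-12769956, minus strand, motif 48 and 7 bases before the start: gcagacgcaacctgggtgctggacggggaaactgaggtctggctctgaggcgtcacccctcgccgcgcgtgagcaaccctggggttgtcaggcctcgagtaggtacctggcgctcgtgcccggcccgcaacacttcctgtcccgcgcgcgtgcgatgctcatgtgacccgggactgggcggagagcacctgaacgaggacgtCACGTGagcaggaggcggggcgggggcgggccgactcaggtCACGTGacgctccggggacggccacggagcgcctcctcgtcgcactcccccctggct
Gga2, chr7:122021149-122021448, minus strand, motif 1 base before the start: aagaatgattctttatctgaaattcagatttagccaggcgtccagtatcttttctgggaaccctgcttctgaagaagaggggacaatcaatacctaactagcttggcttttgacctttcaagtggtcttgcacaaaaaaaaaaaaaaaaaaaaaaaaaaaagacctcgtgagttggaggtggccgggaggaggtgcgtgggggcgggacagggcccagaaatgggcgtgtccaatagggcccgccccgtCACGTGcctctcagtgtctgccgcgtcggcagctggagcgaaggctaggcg
Abca1, chr4:53159846-53160145, minus strand, motif 147 bases before the start: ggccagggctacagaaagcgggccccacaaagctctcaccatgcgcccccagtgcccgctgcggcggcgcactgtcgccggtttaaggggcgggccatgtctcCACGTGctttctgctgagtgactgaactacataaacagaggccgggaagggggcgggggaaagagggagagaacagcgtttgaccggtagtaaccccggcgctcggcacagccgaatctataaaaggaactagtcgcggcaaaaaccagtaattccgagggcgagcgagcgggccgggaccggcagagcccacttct
Cipc, chr12:86947093-86947392, plus strand, motif 17 bases before the start: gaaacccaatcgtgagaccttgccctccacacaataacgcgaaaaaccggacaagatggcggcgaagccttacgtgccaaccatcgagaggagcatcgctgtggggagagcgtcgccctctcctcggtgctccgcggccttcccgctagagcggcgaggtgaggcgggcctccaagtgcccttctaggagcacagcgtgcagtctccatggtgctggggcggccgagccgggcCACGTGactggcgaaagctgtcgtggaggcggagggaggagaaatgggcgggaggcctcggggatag

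Of the 18 falls, 6 were in genes of granules and other blood cells. Mpo, the myeloperoxidase of neutrophil granules and of marrow progenitors, was at 6.14 and 6.07 with beads and 7.15 and 7.38 without. It fell from just above background to below it, with a fitted difference of -1.16 ± 0.12 (adjusted p = 0.0177). Mcpt8, a basophil protease, was at 5.52 and 5.63 with beads and 6.87 and 6.55 without (difference -1.13 ± 0.12, adjusted p = 0.0177). Ms4a2, the beta chain of the IgE receptor of basophils and mast cells, was at 5.59 and 5.71 with beads and 6.66 and 6.54 without (difference -0.95 ± 0.09, adjusted p = 0.0173). Cpa3, the carboxypeptidase of the same cells, was at 5.63 and 5.59 with beads and 6.44 and 6.31 without (difference -0.76 ± 0.10, adjusted p = 0.0289). These 3 genes were below background in both groups. Mmp9, a gelatinase of neutrophil granules, was at 7.05 and 6.96 with beads and 7.87 and 7.95 without (difference -0.91 ± 0.11, adjusted p = 0.028). Hba-a2, a hemoglobin chain that shares sequence with Hba-a1, was at 7.44 and 7.67 with beads and 8.41 and 8.35 without (difference -0.83 ± 0.11, adjusted p = 0.0306).

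The marker lists of these cells were read beside the falls. All 14 measured neutrophil markers had a difference below 0, 12 of them above background, with a median of -0.54, against -0.015 for all genes. The mean of the list was 8.69 and 8.47 with beads and 9.21 and 9.08 without. At an unadjusted p under 0.05, 7 were lower and 0 higher, and Mmp9 was called. S100a9, which classical monocytes also express, was at 11.48 and 11.19 with beads and 12.18 and 12.44 without (difference -0.97 ± 0.38, adjusted p = 0.448). Ngp was at 7.46 and 6.80 with beads and 9.02 and 7.45 without, and the first array without beads was the highest. Of 14 markers of eosinophils, basophils and mast cells, 1 was above background, Gata2, and 9 were below 0, with a median of -0.35. Their mean was 5.44 and 5.35 with beads and 5.95 and 5.68 without. At an unadjusted p under 0.05, 0 were higher and 8 lower, and Mcpt8, Ms4a2 and Cpa3 were called. The lowest difference of the list was a fitted -1.31 in an uncalled member, which is also the lowest value of the paired and inhibitory receptor list. The eosinophil genes Epx (0.02 ± 0.17) and Prg2 (0.00 ± 0.11) were below background in all arrays. Values of the further eosinophil members of the list are not given here, so these 2 do not stand for eosinophil genes as a set. Of 13 progenitor markers Mpo was called, the median was -0.20 (-0.33 over the 9 above background), and the mean was 6.93 and 6.94 with beads and 7.14 and 7.19 without. The erythroid list of 9, which holds Hba-a2, had 4 members higher and 5 lower, with a median of 0.00 (0.19 over the 5 above background), and the beta-type hemoglobin chain Hbb-b2 was at 7.51 and 7.50 with beads and 7.37 and 7.27 without. In bulk RNA, fewer cells of a type and less RNA per cell cannot be told apart. The part of other cells in the falls was not tested.

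The remaining blood cell lists gave no call. Of 12 B cell, 13 NK cell, 11 platelet and 15 dendritic cell markers, 0 were called by limma. Their medians were -0.06, -0.14, 0.06 and -0.03 (-0.05, -0.29, 0.06 and -0.07 over the 5, 2, 7 and 7 members above background), and at an unadjusted p under 0.05 they held 1, 4, 1 and 1 members. Transcripts of antibodies were lower in both bead arrays without being called: the joining chain Jchain was at 5.15 and 6.38 with beads and 7.65 and 6.79 without (difference -1.46 ± 0.39, adjusted p = 0.269), and Igkv8-30 differed by -1.24 ± 0.39 (adjusted p = 0.34). Ighm was at 11.98 and 11.91 with beads and 12.32 and 12.04 without.

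Among the other falls, Ndrg1, which is induced by hypoxia and by differentiation, was at 9.89 and 9.79 with beads and 10.55 and 10.50 without (difference -0.69 ± 0.10, adjusted p = 0.0432). Ifitm1, an interferon-induced membrane protein, was at 9.70 and 9.54 with beads and 10.29 and 10.50 without (difference -0.77 ± 0.11, adjusted p = 0.0359). H2-T24, a class I gene whose probe sets may also detect related class I transcripts, crossed from 7.34 and 7.34 to 6.56 and 6.38 (difference -0.87 ± 0.11, adjusted p = 0.028). The receptor Gpr15 stayed below background (difference -0.93 ± 0.13, adjusted p = 0.0347). The kinases Stk26 and Map3k12 fell by 0.72 ± 0.08 and 0.61 ± 0.09 (adjusted p = 0.0253 and 0.048) from 9.33 and 9.44 for the first and 9.16 and 9.31 for the second. Cep85, a centrosomal protein, fell by 0.87 ± 0.09 (adjusted p = 0.0177) and Kansl1l by 0.84 ± 0.10 (adjusted p = 0.028). Abtb2 and Serinc4 fell to below background, with fitted differences of -1.03 ± 0.14 (adjusted p = 0.0359) and -0.75 ± 0.09 (adjusted p = 0.028). These 6 calls ended when the mean of all probe sets stood for a gene. The difference was then -0.62 for Stk26, -0.23 for Map3k12, -0.56 for Cep85, -0.26 for Kansl1l, -0.39 for Abtb2 and -0.45 for Serinc4, with adjusted p-values of 0.103, 0.311, 0.0598, 0.436, 0.182 and 0.117. The predicted gene Gm16316 differed by -0.62.

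Markers of the monocyte subsets and of tissue macrophages were placed beside these values. Of 19 nonclassical markers, 3 rose (Adgre4, Treml4 and Eno3), 0 fell and the median was 0.42, with 10 higher and 1 lower at an unadjusted p under 0.05. The mean of the list was 8.962 and 8.997 with beads and 8.49 and 8.59 without. In the same list Gngt2 was at 9.54 and 9.69 with beads and 8.96 and 9.08 without (difference 0.59 ± 0.14, adjusted p = 0.184). Cx3cr1, of the same list, lay in the other direction (-0.38 ± 0.11). Of 13 classical markers, 0 were called by limma and the median was -0.18, with 1 higher and 4 lower at an unadjusted p under 0.05. Vcan was at 11.51 and 11.60 with beads and 11.98 and 12.14 without (difference -0.51 ± 0.15, adjusted p = 0.322). Of 21 tissue macrophage markers, 12 above background, Spic and Slc40a1 were called and 17 had a difference above 0. The median was 0.29 over all 21 and 0.74 over the 12, against -0.015 for all genes. In the Gr1hi arrays alone 5 were called. The mean was 7.59 and 7.60 with beads and 7.09 and 7.19 without. The other 9 were below background in both groups. They were Vcam1, Marco, Folr2, Cd5l, Timd4 (4.96 and 5.11 with beads, 4.95 and 4.95 without), Clec4f (6.099 and 6.09, 6.18 and 6.03), Vsig4 (6.15 and 5.98, 5.97 and 6.08), Lyve1 (4.26 and 4.26, 4.25 and 4.34) and Cd163 (3.78 and 4.20, 4.22 and 4.55).

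Each difference was set beside that of Gr1lo cells, and the difference between the subsets was tested. Of the 27 genes that rose in Gr1hi cells, 21 were also higher with beads in Gr1lo cells, where 55.7% of all genes were. Of the 18 that fell, 13 were also lower, against 44.3% of all genes. In Gr1lo cells 41 genes were called (0.225%), and 6 were called in both subsets: Gbp8, Spic, Gpnmb, Slc40a1 and Snx24 rose and Ndrg1 fell. Spic rose by 1.47 ± 0.11 in Gr1hi and 1.08 ± 0.11 in Gr1lo cells, and Snx24 by 1.12 ± 0.13 and 1.27 ± 0.13. Gbp8, Gpnmb, Slc40a1 and Snx24 were below background in Gr1lo cells without beads, so that their differences there are fitted ones. Ndrg1 fell by 0.69 ± 0.10 in Gr1hi and by 0.98 ± 0.10 in Gr1lo cells. The test of the difference between subsets called 8 genes (0.044%), of which 3 were among the 45. Without correction 37 of the 45 had a p under 0.05, against 7.84% of all genes, but the 45 were chosen for their difference in Gr1hi cells.

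Fabp5 was at 10.67 and 10.43 in Gr1lo cells with beads and 10.75 and 10.56 without, so that its difference there was -0.10 ± 0.11 and the subsets differed by 1.44 ± 0.15 (adjusted p = 0.0253). Slc40a1 was at 9.51 and 9.08 in Gr1lo cells with beads and 6.24 and 6.39 without, below background. Its fitted difference there was 2.98 ± 0.14, at least 2.32 against the background level, and the fitted differences of the subsets differed by -1.78 ± 0.20 (adjusted p = 0.0347), while the bead groups of both subsets reached a like level. Ms4a2 differed by 0.19 ± 0.09 in Gr1lo cells, and the subsets by -1.14 ± 0.13 (adjusted p = 0.0347), with all 4 Gr1lo arrays below background. For Cd28 (-0.20 ± 0.11 in Gr1lo cells, adjusted p of the difference between subsets 0.0974), Mcpt8 (0.16 ± 0.12, 0.0896), Ifitm1 (0.32 ± 0.11, 0.104), Mpo (0.02 ± 0.12, 0.119) and Tgm2 (0.34 ± 0.15, 0.393) the difference between subsets did not pass after correction. The nonclassical genes were far brighter in Gr1lo cells: Adgre4 lay at 13.78 and 13.76 with beads and 13.52 and 13.71 without there, and Eno3 at 12.47 and 12.61 with and 12.32 and 12.66 without. Of the 27 genes that rose, 10 had all Gr1lo arrays above all Gr1hi arrays, 9 had them below and 8 overlapped, while all genes tested gave 13.9% above and 19.7% below.

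**Figure D5:**
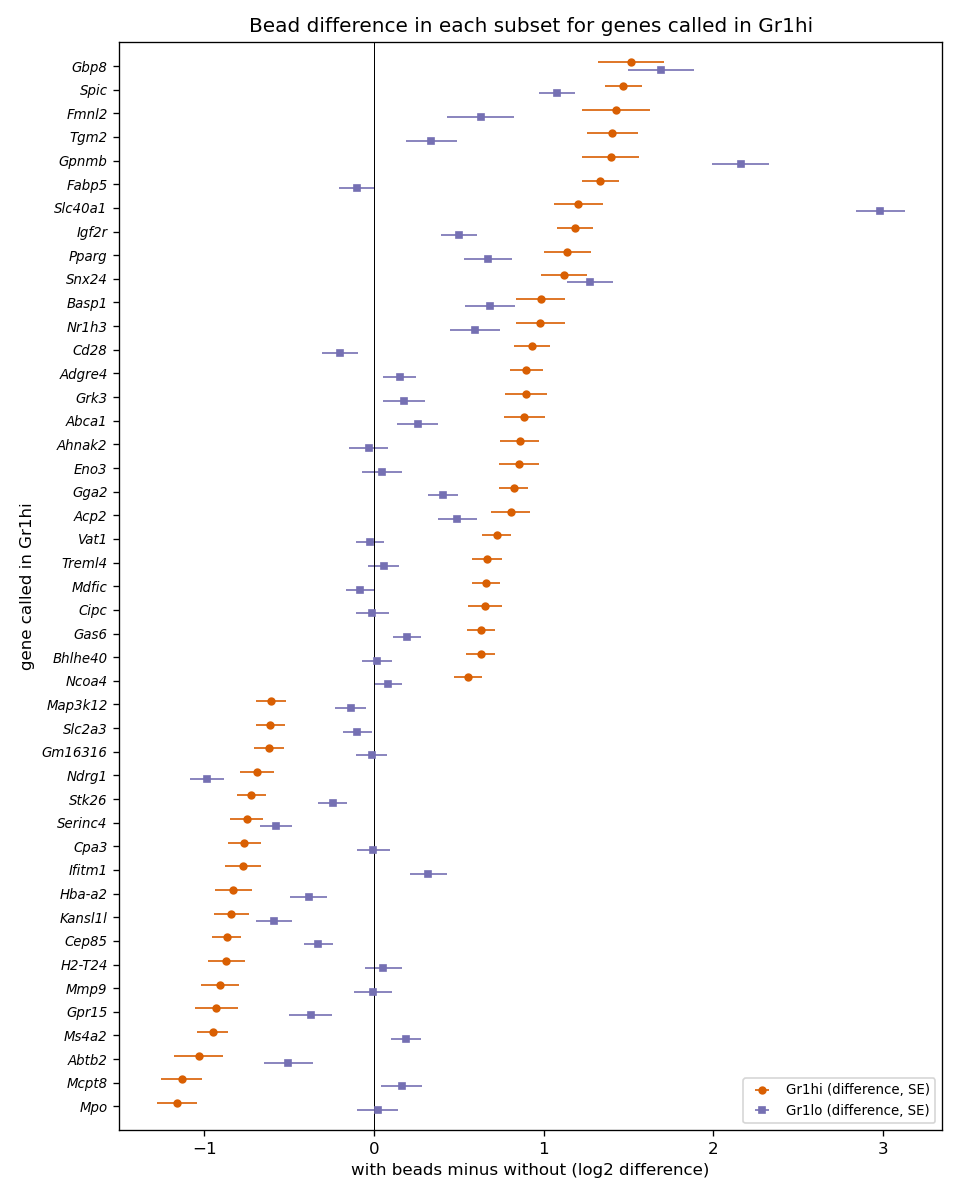
Bead difference (with beads minus without, log2, horizontal axis) in Gr1hi cells (orange circles) and in Gr1lo cells (purple squares) for the 45 genes called in Gr1hi cells, 1 row a gene. Bars are ± the moderated standard error. Slc40a1 lies at 1.20 in Gr1hi and at a fitted 2.98 in Gr1lo cells, where the group without beads is below background, and Fabp5 at 1.33 and -0.10.

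Some of the largest differences did not pass the threshold. Retnla, a product of alternatively activated macrophages, was at 7.04 and 7.16 with beads and 7.86 and 9.32 without, a difference of -1.49 ± 1.20 (adjusted p = 0.743). The second array without beads was the highest of the 4, and in Gr1lo cells without beads Retnla was at 13.10 and 8.56. Alox15, a lipoxygenase of eosinophils and resident macrophages, was below background at 5.98 and 5.87 with beads and was at 7.53 and 6.83 without. Its fitted difference was -1.26 ± 1.19 (adjusted p = 0.793, and 0.115 in the Gr1hi arrays alone). The replicates of Alox15 furthest apart were the 2 Gr1lo arrays without beads, at 11.16 and 6.305. The interferon-induced genes Usp18 (-0.95 ± 0.32, adjusted p = 0.379) and Ifit1 (-0.95 ± 0.30, adjusted p = 0.34) and the trafficking genes Rab5c (-1.06 ± 0.22, adjusted p = 0.139) and Copg2 (-1.03 ± 0.27, adjusted p = 0.261) were lower with beads. In the other direction, Cd83, a dendritic cell activation marker, was at 8.75 and 7.71 with beads and 7.63 and 6.62 without, where the first array of each group was the higher (difference 1.11 ± 0.36, adjusted p = 0.36). The Ras exchange factor Rasgef1b was at 7.94 and 7.93 with beads and 7.01 and 6.77 without (difference 1.04 ± 0.18, adjusted p = 0.0812). Tent5c differed by 1.02 ± 0.24 and Zfand2a by 1.01 ± 0.25 (adjusted p = 0.196 and 0.226). With the 4 Gr1hi arrays fitted alone 48 genes were called, 30 higher and 18 lower, and 32 of them were among the 45. The 16 others included the 3 C1q chains, Rasgef1b, Apoe, Nceh1 and Timp2 on the higher side and Rab27a (-0.89 ± 0.23, adjusted p = 0.0411 in that fit) on the lower.

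Of the called genes, 25 had more than 1 probe set. Of their 46 other probe sets, 26 were above background and all 26 differed in the same direction as the one used. When the mean of all probe sets stood for a gene, 33 genes were called and 30 of them were among the 45. The 15 lost calls are given beside each gene. In the Gr1hi arrays alone 13 of the 45 calls ended, those of Fmnl2, Basp1, Ahnak2, Mdfic, Cipc, Gas6, Bhlhe40, Ncoa4, Map3k12, Slc2a3, Gm16316, Ifitm1 and Gpr15, with adjusted p-values from 0.0507 to 0.102. Results near the threshold were Nr1h3, Ncoa4 and Cipc just inside it (adjusted p = 0.0486, 0.0489 and 0.0489) and Cdh1, Acp5 and Nek6 just outside.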

How the data were processed

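Blood monocytes of 4 groups were measured on 8 Affymetrix mouse arrays. The authors deposited log2 expression values for 45101 probe sets with 0 missing, normalised by RMA and compared with limma per the submitters' processing notes. Versions, and how many cells or mice each array stands for, are not stated in those sources. Scans were not reprocessed.

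Probe sets with exactly 1 symbol in the array annotation were kept (34945), and 932 with several symbols, 9160 with none and 64 controls were left out. Of those kept, 34741 matched RefSeq GRCm38.p6 by Entrez number which changed 0 symbols. This left 18193 genes, 9010 of them with several probe sets, of which the one brightest on average over the 8 arrays was taken. Background, 6.98, was the 95th percentile of the mean levels of 115 genes that blood cells do not use (olfactory, taste, vomeronasal and keratin-associated).

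One mean per group was fitted to the 8 arrays together in limma 3.58.1 (R 4.3.3; residual degrees of freedom 4, prior 4.48), with Benjamini-Hochberg adjustment over all genes and two-sided tests. SE is the moderated standard error. Genes were named if called, if among the 3 uncalled members above background with the smallest p in a list, if among the 10 largest uncalled differences per direction without overlap, or as label checks. Further marker genes (Cd163, Timd4, Clec4f, Vsig4, Lyve1, Vcam1, Marco, Folr2, Cd5l, Hmox1, Epx and Prg2) were named after their values were seen. Members and the 50 lists were chosen with earlier results of these data known; the lists are described by counts and medians, without a test. Alternatives were the genes above background, the mean of probe sets, the 4 Gr1hi arrays only, trended and robust eBayes, weights per array, median centring, cyclic loess, replicate blocks and leaving out each array. The script was tested on simulated data. The number of arrays limits precision. Promoters were taken from RefSeq. pandas 2.3.3 and matplotlib 3.10.9 were used in Python 3.11.15.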

Additional observations from a re-analysis of the deposited data

Results flagged for a closer look

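In 8 genes the bead difference in Gr1hi cells and that in Gr1lo cells were themselves found to differ in the test of the difference between subsets. The 5 that the rule for named genes covers are given first. All values are log2 differences in Gr1hi minus those in Gr1lo cells. For Fabp5 the value was 1.44 ± 0.15 (adjusted p = 0.0253), with 1.33 ± 0.11 in Gr1hi and -0.10 ± 0.11 in Gr1lo cells. For Slc40a1 it was -1.78 ± 0.20 (adjusted p = 0.0347), and the gene rose in both subsets, from below background in Gr1lo cells. For Ms4a2 it was -1.14 ± 0.13 (adjusted p = 0.0347), with every array below background. For Vcan, a matrix proteoglycan of classical monocytes, it was 2.46 ± 0.22 (adjusted p = 0.00778): Vcan was at 11.51 and 11.60 in Gr1hi cells with beads, 11.98 and 12.14 in Gr1hi cells without, 4.85 and 4.89 in Gr1lo cells with beads and 8.10 and 7.58 in Gr1lo cells without, so that the fitted value includes a group below background. For F13a1, a coagulation factor chain of classical monocytes, it was 2.71 ± 0.21 (adjusted p = 0.00443), with -0.34 ± 0.15 in Gr1hi and -3.04 ± 0.15 in Gr1lo cells. Vcan and F13a1 were not called in Gr1hi cells (adjusted p = 0.322 and 0.501). The other 3, named after their values were seen, were Cd209a (3.21 ± 0.17, adjusted p = 0.000646), Chil3 (1.40 ± 0.11, adjusted p = 0.00443) and Klrd1 (2.10 ± 0.17, adjusted p = 0.00443). Their differences in Gr1hi cells were 0.08 ± 0.12, -0.08 ± 0.08 and -0.30 ± 0.12, and those in Gr1lo cells -3.13 ± 0.12, -1.48 ± 0.08 and -2.40 ± 0.12, with Cd209a and Klrd1 below background in all Gr1hi arrays. The subsets also differ in clodronate treatment per the treatment protocol, and subset and clodronate cannot be told apart.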

How the results depend on the processing

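The count of 45 called genes stayed within 1.5 times under 6 of the 9 alternatives that kept all 8 arrays or all Gr1hi arrays, and rose to 121 with trend and robust estimation and 104 with array weights, both with all 45 kept. Replicate numbers of the Gr1hi groups deviated together (r = 0.601 over 8790 genes), but 2 pairs and the labels do not establish pairing. With a replicate block 56 genes were called (39 shared) and with a replicate block within each subset 102 (44 shared). Leaving out 1 array gave 0 to 58 calls, the lower end for the arrays named above and 58 without either Gr1lo array without beads. The 8 calls of the difference between subsets became 5 among genes above background, 5 with the mean of probe sets and 17 with trend and robust estimation, and ranged from 1 to 167 when 1 array was left out. With the mean of all probe sets H2-DMb2 turned from -0.11 to 0.00183. When 1 array was left out, it and 4 other uncalled values turned: Gzma ranged from -0.602 to 0.089, Tcf4 from -0.2725 to 0.0375, H2-DMb2 from -0.2425 to 0.0315, Itgam from -0.1485 to 0.0635 and Nr4a1 from -0.0075 to 0.1475. No called gene turned under any setting. Apart from these, the causes of moved counts were not tested. The median of the eosinophil, basophil and mast cell list could not be taken over genes above background on the mean of all 8 arrays, where none of its members was. With 2 arrays a group, differences under about 0.5 log2 units were not called, and genes below background have no measured fold.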
